A study of Mus musculus with 2 samples.

Results

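Committed oligodendrocyte precursors are the cells between the dividing precursor cell and the myelinating oligodendrocyte. In these hippocampal libraries they were taken as barcodes with at least 1 unique molecular identifier (UMI, 1 counted RNA molecule) of at least 3 of 4 genes, Bmp4, Enpp6, Gpr17 and Neu4. A barcode also needed at least 500 genes, at most 15% mitochondrial UMIs, at most 1 UMI of the microglial gene P2ry12 and at most 5 of the astrocyte gene Slc1a2. The rule found 205 of 14560 kept barcodes, 99 in the 60TM library and 106 in the WT library. The 60TM mice carry a human GFAP transgene under a GFAP promoter (GFAP-hGFAP) on a C57BL6/J background, and the WT mice were C57BL6/J. The promoter is that of an astrocyte gene, and the line is used as a model of Alexander disease, an astrocyte disorder caused by GFAP mutations. All mice were 7 weeks old, and each genotype is 1 library made from the hippocampi of 3 mice, dissociated with papain and captured with 10x Genomics Chromium 3' chemistry. With 1 library per genotype there is no replicate spread, so the differences are described without tests and all intervals are 95% intervals for counting error only. Where a share of cells differs, numbers in the tissue and recovery during dissociation cannot be told apart.

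Oligodendrocyte precursor cells divide throughout life and respond to platelet-derived growth factor through the receptor Pdgfra. A precursor cell that leaves the cycle passes through a short committed stage, in which progenitor receptors are lost and a first set of differentiation genes appears, before the genes of compact myelin reach their full level. In the young adult hippocampus this stage is rare. Its 4 marker genes have different roles. Bmp4 encodes a secreted ligand of the bone morphogenetic protein family, Enpp6 a choline-specific phosphodiesterase of newly forming oligodendrocytes, Gpr17 a membrane receptor that holds back maturation, and Neu4 a sialidase.

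The deposited libraries held 8733 barcodes and 80684152 UMIs for 60TM and 6861 barcodes and 63532407 UMIs for WT, of which 8125 barcodes in 60TM and 6435 in WT were kept. Committed precursors were deep cells, with a median of 19014 UMIs (1267 to 58712) in 60TM and 19270 (966 to 55402) in WT, against 7666 in 60TM and 7481 in WT over all kept barcodes. The rule asks for UMIs of 3 genes, so it reaches deep barcodes more easily than shallow ones. The 2 libraries shared 20 barcodes, none of them a committed precursor. Mouse Gfap, which checks the labels, stood at 395 CPM (UMIs of a gene scaled to a common library total) in 60TM and 68.8 CPM in WT over the other kept barcodes. In committed precursors it had 9 UMIs in 60TM and 3 in WT. The reference may or may not hold the human transgene, and the sources used here do not say.

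The promoters of Enpp6 and Bmp4 are shown because these genes stood highest over precursor cells. The windows run from 250 bases before to 50 bases after the annotated start, from RefSeq on GRCm38.p6. Enpp6 lies at chr8:46986637-46986936 on the plus strand and Bmp4 at chr14:46390620-46390919 on the minus strand.
Enpp6: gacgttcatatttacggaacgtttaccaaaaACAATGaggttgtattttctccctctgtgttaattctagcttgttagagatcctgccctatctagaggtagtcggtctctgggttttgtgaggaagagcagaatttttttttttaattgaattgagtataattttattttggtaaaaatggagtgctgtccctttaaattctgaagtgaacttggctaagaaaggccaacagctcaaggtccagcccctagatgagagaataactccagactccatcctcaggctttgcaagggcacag
Bmp4: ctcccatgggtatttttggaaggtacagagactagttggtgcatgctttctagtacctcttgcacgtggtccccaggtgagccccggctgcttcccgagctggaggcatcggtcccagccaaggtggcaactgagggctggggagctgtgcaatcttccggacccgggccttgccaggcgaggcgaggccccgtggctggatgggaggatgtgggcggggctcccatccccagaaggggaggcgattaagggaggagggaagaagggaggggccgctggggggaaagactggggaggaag
Capitals mark ACAATG, a core of the motif bound by SOX factors, which was searched on both strands and stands in 12.6% of all 32851 promoter windows. It was found once in Enpp6 and not in Bmp4. The other SOX core searched, ACAAAG (18.7% of all windows), and the E-box CAGCTG (16.3% of all windows) are in neither of the 2 windows. Of the 25 other genes listed for the committed stage 21 had a window, and 6 of these held ACAATG, 5 ACAAAG and 9 CAGCTG. A gene counted if any of its windows matched (31 windows for the 21 genes), whereas the shares of all windows count each window.

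Of the 4 marker genes, Gpr17 and Neu4 were found in nearly every committed precursor. Cells lacking Enpp6 and cells lacking Bmp4 stood mostly at opposite ends of the stage. The markers chose the cells, so these values are a description. Gpr17 was found in 98 of 99 cells in 60TM and 105 of 106 in WT, with medians of 19 UMIs per cell in 60TM and 18 in WT. Neu4 was found in 98 of 99 cells in 60TM and 102 of 106 in WT, with a median of 5 UMIs in both libraries. Bmp4 was missing in 11 cells of 60TM and 7 of WT, and Enpp6 in 13 cells of 60TM and 19 of WT. Cells with all 4 markers numbered 73 in 60TM and 75 in WT. In them Bmp4 stood at 999 CPM in 60TM and 1020 CPM in WT. Cells without Enpp6 had less Bmp4, 262 CPM in 60TM and 261 CPM in WT.

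The 26 cells in 60TM and 31 in WT with exactly 3 markers stood just inside the rule, with medians of 11551 UMIs in 60TM and 8978 in WT. In them Gpr17 had medians of 6.5 UMIs in 60TM and 7 in WT, Neu4 2 in both and Bmp4 1 in both. Just outside stood 134 barcodes in 60TM and 110 in WT with exactly 2 markers, of which 129 in 60TM and 102 in WT had Gpr17 and 12 in 60TM and 8 in WT had Bmp4. A further 18 barcodes in 60TM and 12 in WT had 3 markers but passed the P2ry12 or Slc1a2 limit.

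Genes outside the rule that mark the lineage and its early myelination were found in most of these cells. The lineage transcription factor Sox10 was found in 97 of 99 cells in 60TM and 103 of 106 in WT. Bcas1, a protein of early myelinating oligodendrocytes, was found in 96 cells in 60TM and 104 in WT, with medians of 41 UMIs in 60TM and 37.5 in WT. The kinase gene Fyn, which acts on process outgrowth, was found in 99 of 99 cells in 60TM and 102 of 106 in WT. Because depth sets such shares, each cell was also thinned to 2000 UMIs, which left 96 committed precursors in 60TM and 104 in WT. Bcas1 was then found in 87.5% (79.2 to 93.4) of committed precursors in 60TM and 86.5% (78.5 to 92.4) in WT. The comparison was barcodes with over 1 UMI of P2ry12 and no UMI of the 4 marker genes, called barcodes with P2ry12 here. As microglia these should lack Bcas1, and the share was 1.20% in 60TM (median 7018 UMIs before thinning) and 0.798% in WT (median 5743 UMIs). Leaving out barcodes with marker UMIs can lower such shares for genes of this stage, so they are partly set by that choice.

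Cells without Enpp6 go against the label. In them the precursor gene Pdgfra stood at 1227 CPM in 60TM (13 cells) and 1505 CPM in WT (19 cells), against 1.30 (60TM) and 4.43 CPM (WT) in cells with all 4 markers. Ptprz1, a receptor phosphatase of precursor cells, stood at 5208 CPM in 60TM and 4296 CPM in WT, beside 5183 (60TM) and 5387 CPM (WT) in precursor cells. Mbp, a main protein of compact myelin, had only 69.4 CPM in 60TM and 94.8 CPM in WT in cells without Enpp6. These cells passed the rule through Bmp4, Gpr17 and Neu4 and carry the profile of precursor cells. Their share was 13 of 99 in 60TM and 19 of 106 in WT.

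Cells without Bmp4 stood at the other end. In 11 such cells of 60TM and 7 of WT, Mbp reached 9107 CPM in 60TM and 9531 CPM in WT, against 3639 (60TM) and 5187 CPM (WT) in cells with all 4 markers. Mag, a myelin adhesion protein, reached 3780 CPM in 60TM and 2363 CPM in WT. Pdgfra had no UMI in either library there. Enpp6 stayed high in them, at 2312 CPM in 60TM and 2758 CPM in WT.

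The committed precursors thus spread over a wide range. Summed over 24 precursor genes, a cell had between 3.01 and 245 UMIs per 10000 in 60TM (median 43.9) and between 4.61 and 272 in WT (median 44.2). Summed over 32 myelin genes, a cell had between 8.55 and 1255 UMIs per 10000 in 60TM (median 204) and between 8.98 and 910 in WT (median 255). The 2 sums ran against each other, with Spearman's rho of -0.833 over 99 cells in 60TM and -0.858 over 106 cells in WT. The cells of a library share its depth and its mice, and both sums are parts of one total, so this is a description. At least 3 of the 5 precursor markers (Pdgfra, Cspg4, C1ql1, Cacng4, Lhfpl3) were found in 49 cells of 60TM and 46 of WT, and at least 3 of the 4 myelin markers (Mog, Mag, Opalin, Ermn) in 10 of 60TM and 15 of WT. Both sets were found together in 1 cell of 60TM and 2 of WT.

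**Figure D1:**
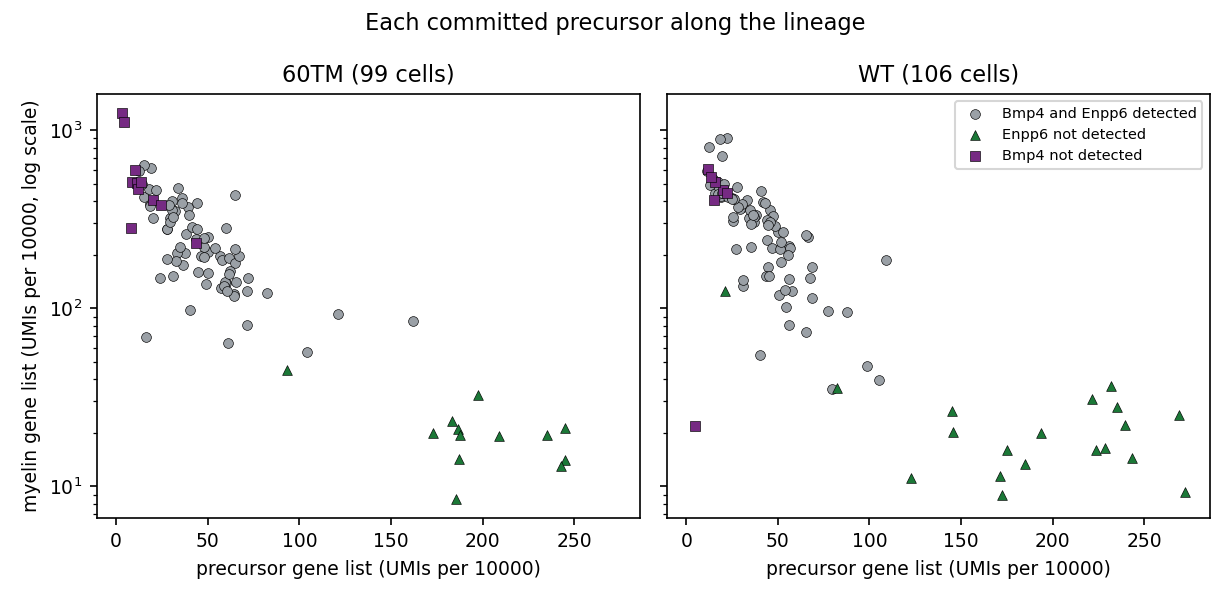
Each point is 1 committed precursor of the 60TM (left) or WT (right) library, with its UMIs of the precursor gene list per 10000 UMIs on the x axis and of the myelin gene list on the y axis (log scale). Most cells without a UMI of Enpp6 lie at the lower right and most without Bmp4 at the upper left, and cells with both fill the range between.

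Within the lineage, committed precursors made up a larger share in the 60TM library, while their share of all kept barcodes was smaller. They were 1.22% (0.991 to 1.48) of kept barcodes in 60TM and 1.65% (1.35 to 1.99) in WT, a ratio of 0.740 (0.557 to 0.982). Of committed precursors, precursor cells and mature oligodendrocytes together, they were 10.5% (8.58 to 12.6) in 60TM and 6.83% (5.62 to 8.196) in WT, a ratio of 1.53 (1.15 to 2.03). Mature oligodendrocytes (at least 3 of Mog, Mag, Opalin and Ermn) numbered 729 in 60TM and 1385 in WT, and precursor cells (at least 3 of the 5 precursor markers) 119 in 60TM and 62 in WT. Cells of the committed rule were taken first and are in neither count, nor are precursor cells among the mature ones. Per precursor cell there were 0.832 committed precursors in 60TM and 1.71 in WT. The direction of the share therefore depends on the denominator, and the interval of each ratio included 1 under some other definitions of the stage. The share of kept barcodes had a ratio of 0.771 (0.551 to 1.08) when all 4 markers were required, and the lineage share 1.40 (0.941 to 2.07) when cells with 3 precursor markers were left out.

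**Figure D2:**
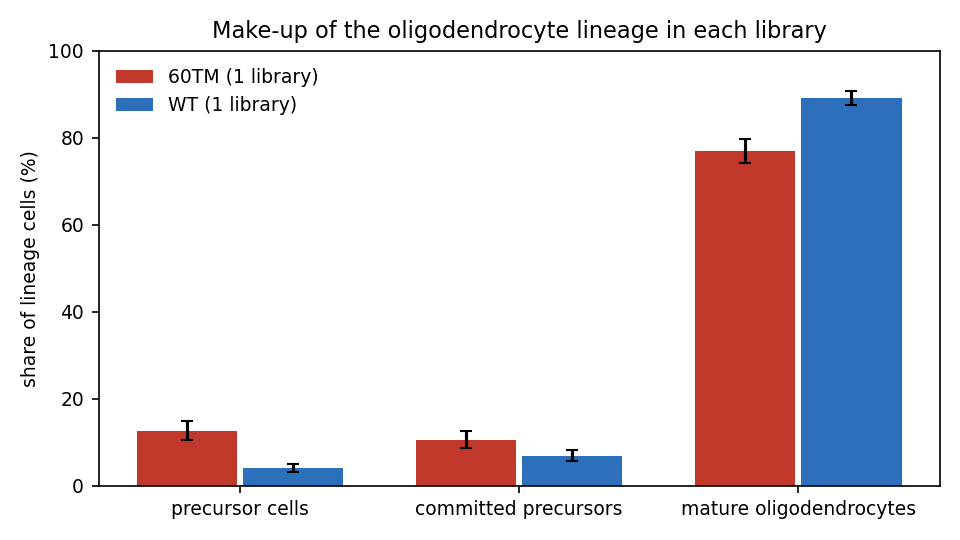
Bars give the share (%) of precursor cells, committed precursors and mature oligodendrocytes among the 3 stages together, 60TM left of WT, with exact 95% counting intervals. Committed precursors make up 10.5% of the lineage in 60TM and 6.83% in WT.

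Against precursor cells, committed precursors were set apart by a group of genes that precursor cells hardly expressed. Among 6704 genes that reached 50 UMIs over both stages in each library, 489 (7.29%) exceeded the precursor level 2-fold or more in both libraries and 681 (10.2%) fell short of it 2-fold or more. The stages were chosen from these cells' own counts, so nothing is tested here. Beside the rule's own Enpp6 and Bmp4, the highest ratios belonged to Parvb, 9630013A20Rik, Frmd4a, 9530059O14Rik, Gm36988, Chn2, Nhsl2, Rassf10, Kif19a and Epcam. Parvb, which encodes the integrin-linked adaptor beta-parvin, stood at 219 CPM in committed precursors of each library, against 1.28 CPM in precursor cells of 60TM and 2.20 CPM in those of WT. Chn2, a Rac-inactivating protein, stood at 897 CPM in 60TM and 1134 CPM in WT, against 21.8 (60TM) and 33.0 CPM (WT) in precursor cells. Rassf10 and Gm36988 had no UMI in precursor cells, and against a floor of 3 UMIs per library Rassf10 was at least 47.8-fold higher in 60TM and at least 28.9-fold higher in WT.

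Epcam, an adhesion molecule best known from epithelia, was nearly confined to the committed stage within the lineage. It stood at 169 CPM in committed precursors of 60TM and 170 CPM in those of WT. Precursor cells had 1.28 CPM in 60TM and no UMI in WT, and mature oligodendrocytes had no UMI in 60TM and 0.0882 CPM in WT. Of thinned cells, 16.7% in 60TM and 21.2% in WT had an Epcam UMI, against 0.0729% (60TM) and 0.0443% (WT) of barcodes with P2ry12. Slc5a7, the choline transporter known from cholinergic neurons, stood at 90.2 CPM in 60TM and 97.3 CPM in WT, and had 15.4 (60TM) and 6.59 CPM (WT) in precursor cells.

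The genes lowest against precursor cells were F3, Dusp6, Cdo1, AW047730, E130114P18Rik, Sorcs3, Cp, Trib1, Hes1, Kcnip3, Sapcd2 and Hes5. Hes5, a Notch effector that keeps progenitors undifferentiated, stood at 10.9 CPM in committed precursors of 60TM and 29.5 CPM in those of WT, against 360 (60TM) and 429 CPM (WT) in precursor cells. Hes1 stood at 1.04 CPM in 60TM and 7.64 CPM in WT, against 127 (60TM) and 123 CPM (WT). Dusp6, a feedback phosphatase of ERK signalling, stood at 4.66 CPM in 60TM and 5.09 CPM in WT, against 104 (60TM) and 101 CPM (WT). The ligand gene Dll3 was lower as well, at 9.85 CPM in 60TM and 11.2 CPM in WT, against 83.2 (60TM) and 90.1 CPM (WT). In all, 4 of the 8 Notch genes measured were at least 2-fold lower, beside 10.2% of all genes, and none higher, beside 7.29%.

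**Figure D3:**
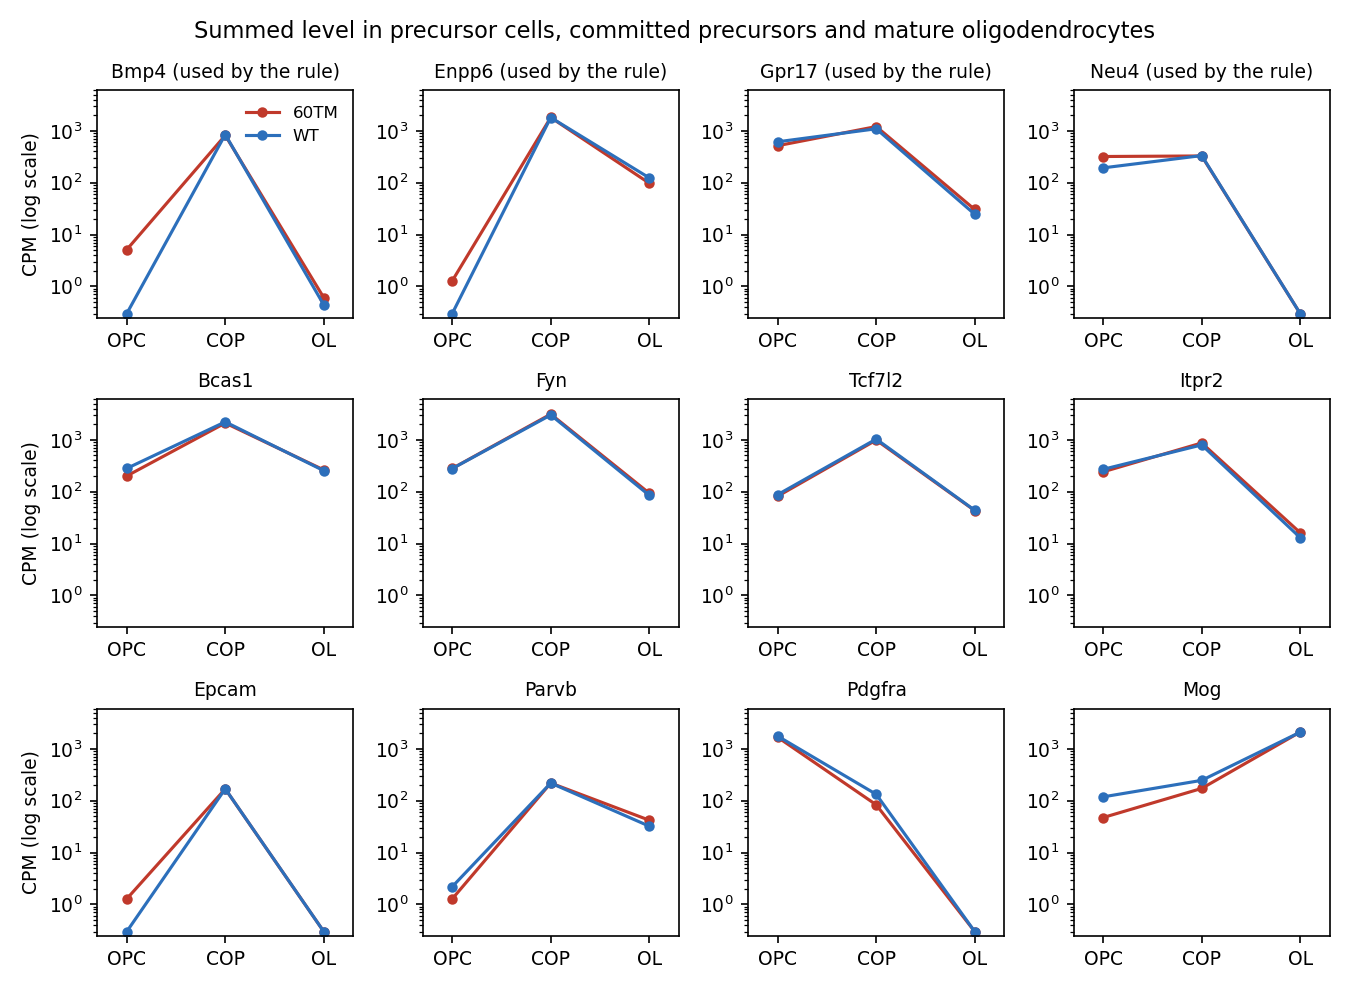
Points give the summed level (CPM, log scale) of 12 genes in precursor cells (OPC), committed precursors (COP) and mature oligodendrocytes (OL) of the 60TM (red) and WT (blue) libraries, 1 value per library, with values under 0.3 CPM drawn at 0.3. Bmp4, Enpp6, Parvb and Epcam peak in committed precursors, Pdgfra is lower and Mog higher at each later stage.

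Genes listed for the committed and newly formed stage, outside the 4 markers, peaked there. Of 23 measured, 20 were at least 2-fold higher than in precursor cells in both libraries, and of 24, 22 were at least 2-fold higher than in mature oligodendrocytes, beside 17.1% of all genes. The medians of their log2 ratios were 3.39 in 60TM and 3.07 in WT over precursor cells, against -0.056 and -0.094 over all genes. Tcf7l2, a transcription factor of the Wnt pathway that acts in oligodendrocyte maturation, stood at 990 CPM in 60TM and 1035 CPM in WT, against 82.0 (60TM) and 87.9 CPM (WT) in precursor cells and 43.3 (60TM) and 43.9 CPM (WT) in mature oligodendrocytes. Itpr2, a calcium release channel of the endoplasmic reticulum, stood at 871 CPM in 60TM and 799 CPM in WT, against 242 (60TM) and 270 CPM (WT) in precursor cells and 16.2 (60TM) and 13.0 CPM (WT) in mature oligodendrocytes. Samd4 ran the other way, with 4.15 CPM in 60TM and 7.64 CPM in WT, against 70.4 (60TM) and 61.5 CPM (WT) in precursor cells.

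Precursor genes stood between the neighbouring stages. Of 23 precursor genes measured, 18 were at least 2-fold lower than in precursor cells, beside 10.2% of all genes. Against mature oligodendrocytes 20 of 20 were at least 2-fold higher, beside 17.1% of all genes. Precursor cells were chosen by Cspg4 and the other precursor markers, and were kept out of the mature cells, so these counts are partly set by that choice. Cspg4, the NG2 proteoglycan, stood at 64.8 CPM in 60TM and 47.9 CPM in WT, against 697 (60TM) and 613 CPM (WT) in precursor cells. Of its 125 UMIs in 60TM 83, and of its 94 UMIs in WT 71, lay in the cells without Enpp6, and cells with all 4 markers had 26.6 CPM in 60TM and 14.6 CPM in WT. Vcan, the matrix proteoglycan versican, was nearer to precursor cells, at 726 CPM in 60TM and 563 CPM in WT, against 932 (60TM) and 736 CPM (WT), and cells with all 4 markers had 777 CPM in 60TM and 591 CPM in WT. In mature oligodendrocytes Vcan stood at 1.82 CPM in 60TM and 0.750 CPM in WT. Sox6, which delays differentiation, stood at 303 CPM in 60TM and 298 CPM in WT, against 320 (60TM) and 385 CPM (WT) in precursor cells.

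Myelin genes differed in how near they stood to the mature level. Of 26 measured, 13 were at least 2-fold higher than in precursor cells (7.29% of all genes) and 1 lower (10.2% of all genes). Of 32 measured, 27 were at least 2-fold lower than in mature oligodendrocytes, beside 10% of all genes. Mature oligodendrocytes were chosen by Mog, Mag, Opalin and Ermn, so the count against them is partly set by that choice. Mbp was already near the mature level, at 4127 CPM in committed precursors of 60TM and 5240 CPM in those of WT, against 4790 (60TM) and 4463 CPM (WT) in mature oligodendrocytes. Opalin, a membrane protein of later oligodendrocytes, stood at 31.6 CPM in 60TM and 63.2 CPM in WT, against 1701 (60TM) and 1930 CPM (WT) in mature oligodendrocytes. Nfasc, the adhesion molecule neurofascin, exceeded the mature level, at 2062 CPM in 60TM and 1911 CPM in WT, against 1005 (60TM) and 781 CPM (WT). The genes lowest against mature oligodendrocytes were C030029H02Rik, Wfdc18, Heg1, Dock5, Folh1, Hebp1, Ldb3, C630043F03Rik, Arc, Ptgds, Mal and Pdlim2. Ptgds, a prostaglandin synthase, stood at 489 CPM in 60TM and 333 CPM in WT, against 17946 (60TM) and 11691 CPM (WT).

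Of 10152 genes set against mature oligodendrocytes, 1732 (17.1%) were at least 2-fold higher in committed precursors in both libraries and 1016 (10%) at least 2-fold lower. Myelin RNA takes up much of a mature cell's total, and with ratios scaled by the median gene the split was 1178 higher and 1364 lower, so that 46.3% of the differing genes were higher in place of 63%. Highest were Neu4 and Bmp4 of the rule, then Epcam, Shisa9, Vxn, Vcan, Slc5a7, C1ql1, Mycl, Pdgfra, Gm38039 and Susd4. For Pdgfra, 159 of 161 UMIs in 60TM and 254 of 261 in WT lay in the cells without Enpp6. Mycl, a MYC-family transcription factor, stood at 296 CPM in 60TM and 331 CPM in WT, against 0.760 (60TM) and 0.618 CPM (WT) in mature oligodendrocytes and 34.6 (60TM) and 39.6 CPM (WT) in precursor cells.

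Lineage transcription factors fell into groups. Against precursor cells, 9 of 35 measured were at least 2-fold higher and 14 lower, beside 7.29% and 10.2% of all genes. Myrf, the activator of myelin genes, stood at 235 CPM in 60TM and 206 CPM in WT, against 37.1 (60TM) and 30.8 CPM (WT) in precursor cells and 274 (60TM) and 271 CPM (WT) in mature oligodendrocytes. Sox10, which is needed at every stage, hardly differed, at 585 CPM in 60TM and 590 CPM in WT, against 538 (60TM) and 541 CPM (WT) in precursor cells. The 2 SoxC genes parted: Sox4 stood at 977 CPM in 60TM and 1145 CPM in WT, against 387 (60TM) and 393 CPM (WT) in precursor cells, and Sox11 at 45.6 (60TM) and 67.2 CPM (WT), against 160 (60TM) and 209 CPM (WT).

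Among BMP signalling genes, Bmp4 is a marker of the rule, so its level of 819 CPM in 60TM and 850 CPM in WT was set by the choice of cells. The BMP target gene Id2 was at 18.1 CPM in 60TM and 39.7 CPM in WT, against 236 (60TM) and 268 CPM (WT) in precursor cells. The inhibitor Smad7 was at 192 CPM in 60TM and 187 CPM in WT, against 39.7 (60TM) and 52.8 CPM (WT) in precursor cells and 504 (60TM) and 533 CPM (WT) in mature oligodendrocytes. The receptor gene Bmpr1a was at 32.6 CPM in 60TM and 37.2 CPM in WT, against 58.9 (60TM) and 87.9 CPM (WT) in precursor cells. Of the 8 BMP genes measured beside Bmp4, 1 was at least 2-fold higher than in precursor cells (Smad7, beside 7.29% of all genes) and 1 lower (Id2, beside 10.2%).

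Cytoskeleton genes differed in both directions. Of 34 measured, 11 were at least 2-fold higher than in precursor cells (7.29% of all genes) and 6 lower (10.2% of all genes). Map1b, a microtubule-associated protein of growing processes, stood at 1339 CPM in 60TM and 1472 CPM in WT, against 97.3 (60TM) and 116 CPM (WT). Of 22 cholesterol synthesis genes measured, 8 were at least 2-fold higher than in precursor cells, beside 7.29% of all genes, and none lower. Cyp51, which removes a methyl group from lanosterol, stood at 340 CPM in 60TM and 447 CPM in WT, against 98.6 (60TM) and 103 CPM (WT) in precursor cells. Of 18 receptor and ion channel genes measured, 9 were at least 2-fold lower than in precursor cells, beside 10.2% of all genes, and 1 higher, Itpr2. Kcnd2, a potassium channel of precursor cells, stood at 20.7 CPM in 60TM and 17.8 CPM in WT, against 186 (60TM) and 185 CPM (WT). Gria2, a glutamate receptor subunit, remained near the precursor level, at 989 CPM in 60TM and 932 CPM in WT, against 1206 (60TM) and 1165 CPM (WT).

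The comparison of genotypes asks whether committed precursors of the disease model differ from those of WT mice. Few genes differed by much: among 7911 genes that reached 50 UMIs over both libraries, 81 (1.02%) stood 2-fold or more higher in 60TM and 48 (0.607%) 2-fold or more lower, and the median log2 ratio was 0.010. The 4 stage markers had ratios of 60TM over WT of 0.963 (0.899 to 1.03) for Bmp4, 1.003 (0.957 to 1.05) for Enpp6, 0.983 (0.880 to 1.10) for Neu4 and 1.10 for Gpr17. For 1 of the 4, Gpr17, the interval lay above 1. Cells of both libraries were chosen by these genes, so the ratios are a description. Of 24 other genes of the stage, none was at least 1.5-fold higher and 1 lower, Samd4, from 8 UMIs in 60TM and 15 in WT. Over all 10127 genes that reached 20 UMIs, 755 (7.46%) stood 1.5-fold or more higher and 562 (5.55%) lower.

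Many of the largest ratios rested on single cells. In a ranking by whichever interval bound lay closer to 1, C4b, Snhg11, Meg3, Sncb, Ttr, Stmn2, Chchd10, Vsnl1, Rian, Syt1, Rtp4 and Atp1b1 were highest in 60TM. Snhg11, a long noncoding host gene abundant in neurons, had 393 UMIs in 60TM and 20 in WT, of which 158 lay in 1 cell. Meg3, a neuronal noncoding RNA, had 943 UMIs in 60TM and 104 in WT, of which 455 lay in that same cell. That cell had 15574 UMIs in all, with only 1 of Bmp4, 1 of Enpp6, 2 of Gpr17 and 1 of Neu4. It is therefore also among the cells with all 4 markers. Without the 5 cells with most UMIs in each library the ratio of Meg3 was 0.862. Another 60TM cell, of 54626 UMIs, held at least 30% of the UMIs of 19 genes and had 55 UMIs of the synaptic gene Snap25 beside 28 of Bmp4 and 45 of Enpp6. Scrublet, which scores likely doublets (2 cells in 1 droplet), would have removed the second cell but not the first. The summed level of 11 neuron markers was 667 CPM in 60TM and 118 CPM in WT, with 10 of 11 found in 60TM and 9 of 11 in WT and Neurod6 at 0 in both. Without the 5 cells with most UMIs, 50 of the 81 genes remained at least 2-fold higher and 25 of the 48 at least 2-fold lower, counting genes with over 3 UMIs left in the library where they are higher.

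The genes lowest in 60TM were those of dividing cells and 1 vascular gene. They were Vtn, Ube2c, Top2a, Cenpf, Prc1, Mki67, Hmmr, Cenpe, Knl1, Tpx2, Racgap1 and Cks2. Top2a, a topoisomerase of dividing cells, had 3 UMIs in 60TM and 165 in WT, and Mki67, the Ki-67 antigen, had 1 in 60TM and 84 in WT. These UMIs came from few WT cells: at least 3 of 9 mitotic genes were found in 0 of 99 committed precursors in 60TM, which allows a share of up to 3.03% by the limit of 3 counts and 3.66% by the exact interval, and in 4 of 106 in WT (3.77%, 1.04 to 9.38). None of those 4 cells had a UMI of Enpp6, and each had between 20 and 40 UMIs of Pdgfra. Among precursor cells, the same genes marked 9 of 119 cells in 60TM and 4 of 62 in WT. Vtn had 2 UMIs in 60TM and 151 in WT, 148 of them in 1 cell that also had 26 UMIs of the pericyte gene Rgs5. Summed mural markers were 5.18 CPM in 60TM and 101 CPM in WT, with 4 of 8 found in each library.

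**Figure D4:**
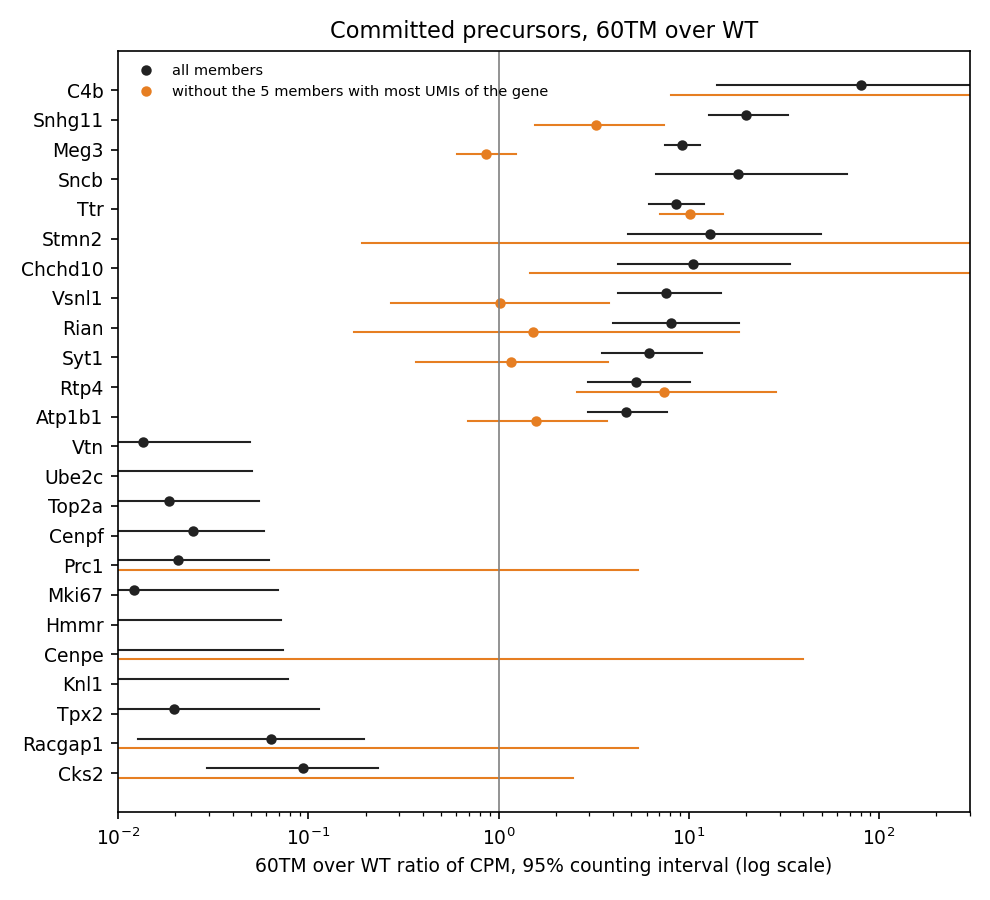
Points give the 60TM over WT ratio of CPM (log scale) in committed precursors for the 24 genes with the highest and lowest ratios, with 95% counting intervals clipped at the axis, over all cells (black) and without the 5 cells with most UMIs of the gene in each library (orange). C4b, Ttr and Rtp4 stay above 1 without those cells, while Meg3, Vsnl1 and Syt1 have trimmed intervals that include 1; a trimmed ratio without UMIs in a library has no point.

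Other genotype differences were spread over many cells. C4b, a complement component also raised in reactive glia, had 79 UMIs in 22 of 99 cells in 60TM and 1 UMI in 1 of 106 cells in WT, a ratio of 80.4 (14.0 to 3215). The cell with most held 29 of the 79. The neighbouring copy C4a is nearly identical, and had 0 UMIs in 60TM and 1 in WT. After thinning, C4b was found in 8.33% (3.67 to 15.8) of committed precursors in 60TM and in 0 of 104 in WT, which allows up to 2.88%. In barcodes with P2ry12 the shares were 4.52% (3.77 to 5.37) in 60TM and 0.710% in WT, so that in 60TM the 2 intervals overlap. Precursor cells (17.8% in 60TM) and mature oligodendrocytes (16.04% in 60TM) had higher shares.

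Ttr, the main secreted protein of the choroid plexus, was found in 96 of 99 cells in 60TM and 36 of 106 in WT, with at most 9 UMIs per cell. After thinning its share was 33.3% in 60TM and 6.73% in WT, against 50.9% (60TM) and 5.94% (WT) of barcodes with P2ry12. Whether this RNA came from outside the cells was not tested. Of the 8 listed choroid plexus and ependymal genes 4 were found in each library, and Folr1, Clic6 and Kl had no UMI in either. Over the other kept barcodes Ttr stood at 18797 CPM in 60TM and 4772 CPM in WT.

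Interferon response genes were higher in 60TM as a group, in committed precursors and also over the other kept barcodes. All 12 measured genes of the 22 listed had ratios above 1, and 7 were at least 1.5-fold higher with none lower, beside 7.46% of all genes. The median log2 ratio was 0.68, against 0.014 over all genes. A cell had a median of 5.11 UMIs per 10000 of the list in 60TM (0 to 77.3) and 2.78 in WT (0 to 51.6), so the libraries overlap widely. Irf9, the DNA-binding partner of Stat2 in the response, had 54 UMIs in 33 cells in 60TM and 19 in 14 cells in WT, a ratio of 2.89 (1.69 to 5.17). Stat2 had 39 UMIs in 26 cells in 60TM and 22 in 16 cells in WT, a ratio of 1.80 (1.04 to 3.19).

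Among the effectors, Bst2, the antiviral protein tetherin, had 88 UMIs in 19 cells in 60TM and 30 in 5 cells in WT, a ratio of 2.99 (1.95 to 4.68). Rtp4, an interferon-induced inhibitor of viral replication, had 73 UMIs in 20 cells in 60TM and 14 in 9 cells in WT, a ratio of 5.31 (2.97 to 10.2). Ifit1, which binds viral RNA, had 56 UMIs in 7 cells in 60TM and 10 in 3 cells in WT, so its ratio of 5.70 (2.88 to 12.5) rests on few cells. Ifit3 (ratio 1.83) was found in 15 cells in 60TM and 5 in WT, and its near-identical copy Ifit3b can share its reads. Microglia markers, genes of another interferon-responsive cell, summed to 81.4 CPM in 60TM and 60.6 CPM in WT, with 10 of 10 found in both and at most 23 UMIs per cell in 60TM and 15 in WT. Of 7 microglia markers measured, 4 were at least 1.5-fold higher in 60TM and none lower, beside 7.46% and 5.55% of all genes. Over the other kept barcodes all 12 genes were higher in 60TM too, with ratios between 1.52 and 6.99. After thinning, Rtp4 was found in 7.29% of committed precursors in 60TM and 1.92% in WT, against 10.5% (60TM) and 2.97% (WT) of barcodes with P2ry12. Bst2 was found in 5.21% of committed precursors in 60TM and 0.962% in WT, against 38.7% (60TM) and 25.8% (WT). The share in committed precursors was at or below that in barcodes with P2ry12 for 8 of the 12 genes in 60TM and 7 in WT. Microglia express interferon genes themselves, and the part of their RNA in the result was not tested.

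The promoters of Bst2, Ifit1 and Stat2 are shown because they carry the letters GAAANNGAAA, the core of the interferon-stimulated response element. Bst2 lies at chr8:71537423-71537722 on the minus strand, Ifit1 at chr19:34640639-34640938 and Stat2 at chr10:128270248-128270547, both on the plus strand.
Bst2: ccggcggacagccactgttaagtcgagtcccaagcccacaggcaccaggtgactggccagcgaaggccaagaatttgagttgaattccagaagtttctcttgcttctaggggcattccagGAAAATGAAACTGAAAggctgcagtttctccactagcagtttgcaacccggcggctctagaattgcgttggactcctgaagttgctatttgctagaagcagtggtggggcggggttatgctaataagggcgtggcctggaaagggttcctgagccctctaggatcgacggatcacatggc
Ifit1: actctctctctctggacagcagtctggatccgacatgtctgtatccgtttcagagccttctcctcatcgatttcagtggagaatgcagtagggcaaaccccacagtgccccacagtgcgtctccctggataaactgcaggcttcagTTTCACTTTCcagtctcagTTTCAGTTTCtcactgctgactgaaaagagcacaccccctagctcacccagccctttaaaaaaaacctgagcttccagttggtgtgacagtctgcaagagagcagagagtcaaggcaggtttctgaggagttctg
Stat2: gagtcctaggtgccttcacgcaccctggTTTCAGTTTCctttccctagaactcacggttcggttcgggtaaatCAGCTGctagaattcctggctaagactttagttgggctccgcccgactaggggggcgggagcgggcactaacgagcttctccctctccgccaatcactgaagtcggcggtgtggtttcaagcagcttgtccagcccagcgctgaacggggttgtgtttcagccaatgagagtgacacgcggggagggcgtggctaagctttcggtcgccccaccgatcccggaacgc
Capitals mark GAAANNGAAA on either strand (as its reverse complement where it reads on the other strand) and, in Stat2, also CAGCTG. Bst2 holds 2 overlapping matches, Ifit1 2 and Stat2 1. The letters stand in 3.44% of all 32851 windows and in 10 of the 17 listed interferon genes with a window (58.8%). The first share counts windows, and the second counts genes with a match in any of their windows (21 windows for the 17 genes). A match is a stretch of letters and says nothing of binding in these cells.

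The neighbouring stages showed parts of the same difference. In precursor cells 5 of 5 interferon genes measured were at least 1.5-fold higher in 60TM, beside 741 of all 8680 genes. In mature oligodendrocytes 11 of 20 were higher, beside 908 of all 12771 genes, and 1 was lower, beside 656. Bst2 had a ratio of 2.43 (1.97 to 3.01) in mature oligodendrocytes. Rtp4 stood at 3.80 CPM in mature oligodendrocytes of 60TM and 2.07 CPM in those of WT, a ratio of 1.83 (1.21 to 2.79), beside the ratio of 5.31 in committed precursors. Ifit1 had 30 UMIs in mature oligodendrocytes of 60TM and 52 in those of WT, at 2.28 (60TM) and 2.29 CPM (WT). Whether these differences vary between stages was not tested.

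**Figure D5:**
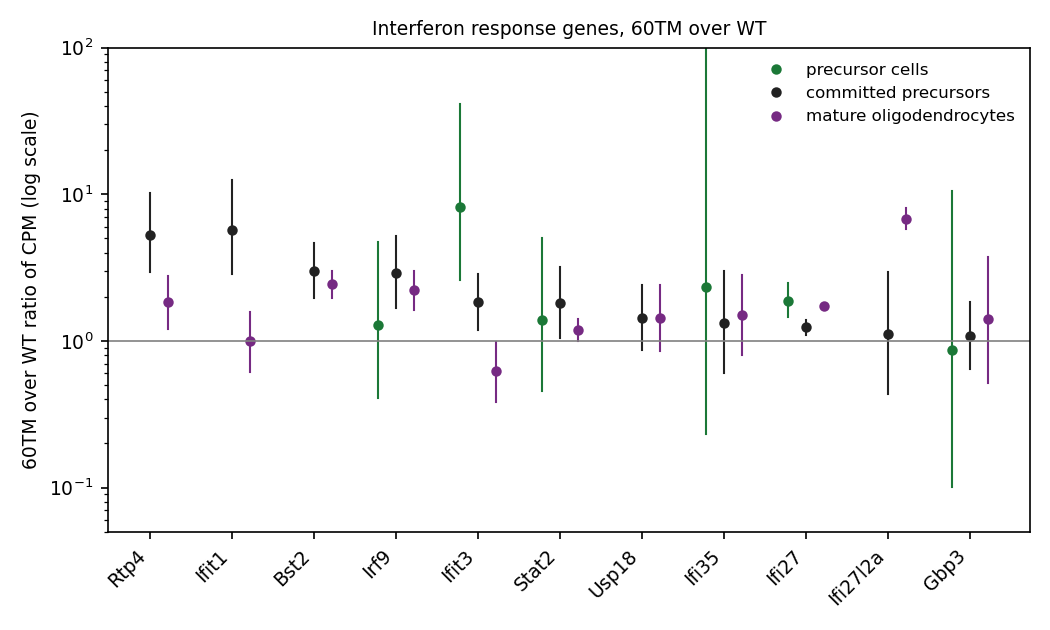
Points give the 60TM over WT ratio of CPM (log scale) with 95% counting intervals for 11 interferon genes with at least 20 UMIs in committed precursors (black), beside precursor cells (green) and mature oligodendrocytes (purple). All 11 black points lie above 1, 7 with their whole interval, and ratios with a library at 0 are not drawn.

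Cholesterol synthesis genes were lower in 60TM as a group. Of 23 measured, 22 had ratios below 1, and for 19 (82.6%) the counting interval lay below 1, against 6.76% of the 10127 genes (and 7.8% with the interval above 1). The shifts were small, with a median log2 ratio of -0.39. At least 1.5-fold lower were 3 genes (13%, beside 5.55% of all genes), Msmo1 and Tm7sf2 among them. The 1 gene with a ratio above 1 was at least 1.5-fold higher (4.35%, beside 7.46% of all genes), with its counting interval above 1. A cell had a median of 27.7 UMIs per 10000 of the list in 60TM (0 to 120) and 34.6 in WT (0 to 132), and the libraries overlap widely. Hmgcs1, whose enzyme makes HMG-CoA, had 1104 UMIs in 84 of 99 cells in 60TM and 1535 UMIs in 94 of 106 cells in WT, a ratio of 0.732 (0.677 to 0.791). Msmo1, a sterol demethylase, had 658 UMIs in 79 cells in 60TM and 1007 in 85 cells in WT, a ratio of 0.665 (0.602 to 0.734).

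In cells with all 4 markers 21 of the 23 genes had ratios below 1, beside 4343 of all 9346 genes. In cells kept by Scrublet 20 of 23 had ratios below 1, beside 4934 of all 9880 genes. The neighbouring stages differed from this, with a median log2 ratio of 0.46 in precursor cells and 0.006 in mature oligodendrocytes. In precursor cells 9 of 22 genes were at least 1.5-fold higher in 60TM, beside 741 of all 8680, and none was lower, beside 909. Hmgcs1 stood at 572 CPM in committed precursors of 60TM and 782 CPM in those of WT, and at 246 (60TM) and 132 CPM (WT) in precursor cells. The difference between stages was not tested. Of 26 genes of fatty acid and myelin lipid synthesis, none was at least 1.5-fold higher in 60TM. Lower were 3 (11.5%, beside 5.55% of all genes), Scd1, Fads2 and Srebf1. Scd1, a fatty acid desaturase, had 15 UMIs in 11 cells in 60TM and 44 in 23 cells in WT.

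Myelin genes gave no stable direction between genotypes. Of 32 measured, 2 (6.25%) were at least 1.5-fold higher in 60TM (Mobp and Apod), beside 7.46% of all genes. Another 8 (25%) were lower, beside 5.55%, and the median log2 ratio was -0.18. In cells with all 4 markers 30 of 31 had ratios below 1, beside 4343 of all 9346 genes, with a median of -0.75. In cells kept by Scrublet 22 of 28 had ratios above 1, beside 4946 of all 9880 genes, with a median of 0.32. Mal, a raft protein of myelin, had 271 UMIs in 31 cells in 60TM and 719 in 32 cells in WT, a ratio of 0.384 that became 1.13 without the 5 cells with most UMIs in each library. Mobp had 565 UMIs in 25 cells in 60TM and 203 in 27 cells in WT, and its ratio of 2.83 became 1.22 in the same way.

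Precursor genes went both ways between genotypes, with 14 of 24 ratios above 1 and 10 below and a median log2 ratio of 0.04. Of 36 lineage transcription factors measured, 1 was at least 1.5-fold higher in 60TM (Etv1, beside 7.46% of all genes) and 6 lower (beside 5.55%). Hes5 had 21 UMIs in 9 cells in 60TM and 58 in 12 cells in WT, a ratio of 0.368 (0.212 to 0.616). The cells without Enpp6 held 16 of these Hes5 UMIs in 60TM and 51 in WT, and cells with all 4 markers 5 in 60TM and 7 in WT. Id2 had 35 UMIs in 20 cells in 60TM and 78 in 25 cells in WT, a ratio of 0.457 (0.297 to 0.689). Pdgfra was lower as well, with 161 UMIs in 14 cells in 60TM and 261 in 23 cells in WT, of which the cells without Enpp6 held 159 UMIs in 60TM (13 cells) and 254 in WT (19 cells). Sox10, Olig2 and Sox2 had ratios between 0.955 and 0.990. Of the inhibitors of cyclin-dependent kinases, Cdkn1c had 116 UMIs in 44 cells in 60TM and 64 in 33 cells in WT. Cdkn2c had 30 in 18 cells in 60TM and 81 in 30 cells in WT.

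Of 13 chaperone genes measured, 11 had ratios above 1. For 8 (61.5%) the counting interval lay above 1, against 7.8% of all genes, and for 1 (7.69%) below 1, against 6.76%. The shifts were small, with a median log2 ratio of 0.21. The median was 0.25 in cells with all 4 markers and 0.006 in cells with under 3 precursor markers. None was at least 1.5-fold lower in 60TM, and 1 (7.69%) was at least 1.5-fold higher, beside 7.46% of all genes. It was Pdia3, a disulfide isomerase of the endoplasmic reticulum, which had 1228 UMIs in 98 of 99 cells in 60TM and 738 in 99 of 106 cells in WT, a ratio of 1.69 (1.54 to 1.86). Hspa5, the chaperone BiP, had a ratio of 1.49 (1.36 to 1.63). Pdia3 stood at 405 CPM in precursor cells of 60TM and 244 CPM in those of WT, and at 244 (60TM) and 136 CPM (WT) in mature oligodendrocytes. Of 12 genes of the integrated stress response measured, none was at least 1.5-fold higher and 1 lower (8.33%, beside 5.55% of all genes), Shmt2. Of 12 immediate early and dissociation genes, none was higher and 3 were lower (beside 5.55% of all genes), Ier2, Ier5 and Fosb, with 7 to 11 UMIs each in 60TM and 16 to 26 in WT. Without the 5 cells with most UMIs of each gene, 0 of the 7 still measured were lower.

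A second ranking, chosen after the values were seen, left out the 5 cells with most UMIs of each gene in each library. It led with Bst2, C4b, Ttr, Rtp4, AY036118, Hnrnpa0 and Irf9. Bst2 was found in 5 WT cells and C4b in 1, so the trimming itself left both without a WT UMI. Their ranks follow in part from this, and for Bst2 23 of the 30 WT UMIs lay in 1 cell. Hnrnpa0, an RNA-binding protein, had 660 UMIs in 93 of 99 cells in 60TM and 302 in 91 of 106 cells in WT, a ratio of 2.22 (1.94 to 2.56). It was shared with both neighbours, with ratios of 2.16 (1.72 to 2.74) in precursor cells and 2.29 (2.15 to 2.45) in mature oligodendrocytes. The noncoding RNA AY036118 behaved likewise, with ratios of 2.67 in committed precursors, 2.57 in precursor cells and 2.40 in mature oligodendrocytes. Fkbp15, an actin-associated protein, was lower, with 173 UMIs in 50 cells in 60TM and 389 in 69 cells in WT, a ratio of 0.453 (0.376 to 0.543), beside 1.48 (0.716 to 3.30) in precursor cells. Polr3e, a subunit of RNA polymerase III, had a ratio of 0.483 (0.401 to 0.579) in committed precursors and 1.38 in mature oligodendrocytes.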

How the data were processed

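Hippocampal cells of 3 pooled mice per genotype were sequenced as 1 library each. The UMI count matrices, with their gene and barcode tables, were deposited by the authors. Per the submitters' processing notes they were made with Cell Ranger 5.0.0 on GRCm38; the annotation and intron counting are not given in the sources used here. Barcodes with under 500 genes or over 15% mitochondrial UMIs were left out here. Precursor cells, committed precursors and mature oligodendrocytes were taken by the marker rules given above. Doublets were not removed; Scrublet (scanpy 1.11.5), which would remove 610 barcodes of 60TM and 377 of WT, was an alternative.

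Counts were summed per library and stage. Ratios of CPM carry exact conditional binomial 95% intervals, and shares Clopper-Pearson intervals. A gene without UMIs was given a floor of 3 UMIs per library for a bound. Intervals and floors cover counting error only, and with 1 library per genotype there is no test. The design called for ratios with intervals of this kind, and the code was tested on simulated data. List medians used log2 of CPM plus 5, over genes with at least 20 UMIs. Genes named are the 12 highest and 12 lowest of each contrast with at least 50 UMIs, ranked by the interval bound nearest 1 (genotypes) or by the library with the smaller ratio (stages), up to 4 list members past 1.5-fold, and any member of the lineage lists; mitochondrial, ribosomal and sex-linked marker genes were left out of the rankings. Thinning drew 2000 UMIs per cell. Alternatives changed the marker rule, filters, thinning, scaling, UMI minimum and the cells included. Python 3.11.15, numpy 2.4.6, pandas 2.3.3, scipy 1.17.1 and matplotlib 3.10.9 were used. The cells, gene lists and rankings were chosen with earlier results of these data known. Some genes that the rule would name are not reported here; counts over lists include them.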

Additional observations from a re-analysis of the deposited data

Results flagged for a closer look

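For 2 genes the contrast of committed precursors with mature oligodendrocytes ran in opposite directions in the libraries, and in neither case was the difference tested. Snhg11 was 3.4 times the level of mature oligodendrocytes in 60TM and 0.347 times in WT, with 158 of its 393 UMIs in 60TM in 1 cell. Vtn was 0.217 times the level of mature oligodendrocytes in 60TM and 3.35 times in WT, with 148 of its 151 UMIs in WT in 1 cell.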

How the results depend on the processing

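The number of genes that differed at least 2-fold between 60TM and WT (129) moved most with the processing. It was 214 when 2 markers sufficed, 18 after thinning to 2000 UMIs per cell, 424 and 33 with minimums of 20 and 100 UMIs, and 63 without the 5 cells with most UMIs of each gene (over the genes that still had 50 UMIs). The number of genes that differed from precursor cells (1170) was 241 after thinning, 1907 with a minimum of 20 UMIs and 751 with a minimum of 100, and the number that differed from mature oligodendrocytes (2748) was 1131 after thinning. Thinning removes UMIs, so fewer genes reach the minimum. Some ratios of 60TM over WT turned round. Cks2 was 1.025 in cells with all 4 markers, 1.049 where 3 markers needed 2 UMIs each and 1.943 without cells with 3 precursor markers. Sncb was 0.778 and Vsnl1 0.798 with likely doublets removed, Atp1b1 0.948 after thinning, and Meg3 0.862 without the 5 cells with most UMIs. Why these turned was not tested. Of the results on shares, counts and lists, 60 other values stayed within their limits. Of the values of single named genes under other settings, 375 stayed within their limits and 144 moved without turning round. No paired analysis was possible because each genotype has 1 library, for which reason no replicate could be left out either. At these depths genes under 20 UMIs could not be compared.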

Other observations

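Further gene groups of committed precursors gave single differences between genotypes. Of 15 genes listed for disease-associated oligodendrocytes, 3 were at least 1.5-fold higher in 60TM (C4b, H2-D1 and Apod) and 1 lower (Il33), beside 7.46% and 5.55% of all genes. H2-D1, a class I antigen-presenting molecule, had 135 UMIs in 57 of 99 cells in 60TM and 66 in 41 of 106 cells in WT, a ratio of 2.08 (1.54 to 2.84), and its ratio was 3.44 (3.14 to 3.79) in mature oligodendrocytes. After thinning H2-D1 was found in 14.6% of committed precursors in 60TM and 8.65% in WT, against 69.4% (60TM) and 50.6% (WT) of barcodes with P2ry12. Il33, an alarmin of mature oligodendrocytes, had 1 UMI in 60TM and 28 UMIs in 7 cells in WT. Of 26 receptor and ion channel genes, 5 (19.2%) were at least 1.5-fold higher in 60TM and 1 (3.85%) lower, beside 7.46% and 5.55% of all genes. Without the 5 cells with most UMIs of each gene 1 of 17 was higher and 1 lower, beside 530 and 580 of all 8707 genes. Scn8a, a voltage-gated sodium channel, had 66 UMIs in 36 cells in 60TM and 40 in 30 cells in WT, a ratio of 1.68 (1.12 to 2.55).

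Stmn1, a microtubule-destabilizing protein, was the 1 of 36 cytoskeleton genes (2.78%) at least 1.5-fold lower, beside 5.55% of all genes. It had 218 UMIs in 37 cells in 60TM and 387 in 46 cells in WT, of which 113 lay in 1 cell. Of 13 genes of premyelinating death and survival, none was at least 1.5-fold higher and 1 (7.69%) was lower, beside 5.55% of all genes. It was Bak1, a pore-forming killer protein of mitochondria, with 56 UMIs in 42 cells in 60TM and 86 in 53 cells in WT. Astrocyte markers summed to 193 CPM in committed precursors of 60TM and 185 CPM in those of WT. Endothelial markers summed to 45.6 CPM in 60TM and 49.9 CPM in WT.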
